A study of Oryza sativa with 12 samples.

Results

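Roots of a hybrid carry 1 allele from each parent in the same cells, and the 2 alleles can be told apart wherever the parents differ by a base. Sites of this kind at the heading stage of rice were used to set the allele ratio within the hybrid Xieyou9308 against the ratio between its inbred parents, R9308 and Xieqingzao B, and to sort transcripts into cis, trans, both or neither. A site was used when the parents had different single bases with at least 10 reads each and the hybrid had both of these bases with at least 44 reads. Of 249857 sites in 28182 transcripts, 11356 sites in 3954 transcripts met this rule, and each transcript was classed at its best covered site.

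A difference between alleles that lies in the DNA next to a gene, in its promoter for example, acts in cis: it stays with its allele, so the ratio seen between the parents is kept between the alleles of the hybrid. A difference in a diffusible factor, such as a transcription factor, acts in trans: in the hybrid both alleles meet the same factors, so the parental difference is lost. Where both kinds are present they can act in the same direction, making the parents differ more than the alleles of the hybrid, or be opposed, so that the parental difference is smaller than that in the hybrid or turned to the other side. Reads that carry the base of the reference genome can be mapped more readily than reads with the other base, which moves an allele ratio in the same way as a cis difference would.

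The hybrid has Xieqingzao B, an indica line, as its mother and R9308, a restorer line with part japonica composition, as its father. Plants were grown in the field and then on floating foam in nutrient solution, and whole roots were sampled at heading and at tillering. At each stage 2 roots of Xieyou9308, 2 of R9308 and 2 of Xieqingzao B were sequenced, 12 samples in all, of which the 6 heading samples are the subject here. The reads of the 2 roots of a group had been pooled before bases were called, so each group is 1 pool here. The study reports good agreement between replicates in gene expression levels, which does not give the spread of allele ratios. No spread between roots could be computed here. Every interval and p below covers counting error only, in PCR-amplified reads that are not independent molecules. The files name transcripts by identifier only, so root and green tissue markers were not analysed here, and the gene names below are those of the study's annotated list.

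At the classed sites the hybrid had a median of 102 reads (44 to 4351), R9308 a median of 106 (10 to 5381) and Xieqingzao B a median of 122 (10 to 5906). The allele ratio in the hybrid is given as log2 of R9308 reads over Xieqingzao B reads, with 0.5 added to each, and the parental ratio as log2 of R9308 depth over Xieqingzao B depth, after each was divided by the sum of its column over the 11356 sites (1636611 and 1696275 reads). Positive values therefore mean more R9308. A transcript was called biased when a two-sided exact binomial test of its hybrid reads against a share of 0.5 gave a Benjamini-Hochberg adjusted p under 0.05, and its hybrid ratio was called different from the parental ratio by a two-sided exact conditional test at the same threshold. Passing the first test only makes it cis, the second only trans.

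Of the 3954 transcripts, 642 were cis (16.2%, Wilson 95% interval 15.1% to 17.4%), 725 were trans (18.3%, 17.2% to 19.6%), 403 showed both (10.2%, 9.29% to 11.2%) and 2184 neither (55.2%, 53.7% to 56.8%). Among those with both, the effects ran in the same direction in 135 and were opposed in 268. These classes rest on 1045 transcripts called biased in the hybrid (26.4%) and 1128 with a hybrid ratio different from the parental one (28.5%). The parents themselves differed at 2355 (59.6%), with more R9308 in 1004 (25.4%) and more Xieqingzao B in 1351 (34.2%). These calls rest on counting error only. When the tests also allowed for the spread of ratios between sites of the same transcript, 52 transcripts were called biased and 3 called different, which gave 51 cis, 2 trans, 1 with both and 3900 with neither, and 35 of the 642 cis and 0 of the 725 trans transcripts had the same class.

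**Figure D1:**
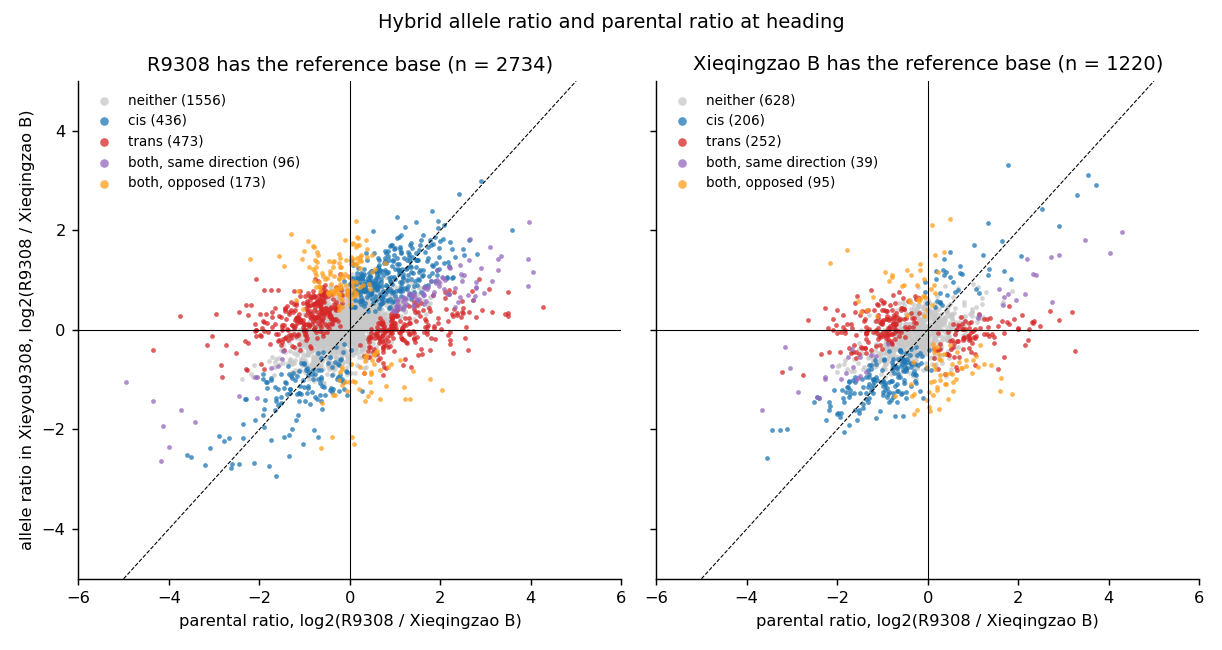
Allele ratio in Xieyou9308 (vertical axis, log2) against the ratio between the parents (horizontal axis, log2) at heading, with 1 point per transcript coloured by class and 1 panel for each parent that has the reference base. Cis transcripts lie along the dashed line of equal ratios, trans transcripts along the horizontal line of equal alleles, and those with opposed effects above or below the origin.

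The classes differed in size as well as in number. Among cis transcripts the median absolute log2 ratio was 1.07 in the hybrid and 0.90 between the parents, and the 2 ratios lay on the same side of 0 in 632 of 642. Among trans transcripts it was 0.24 in the hybrid and 0.97 between the parents. Transcripts with both effects in the same direction had the widest parental ratios of the classes, with a median of 0.82 in the hybrid and 1.96 between the parents. Those with opposed effects had the reverse pattern, 1.01 in the hybrid and 0.34 between the parents. In 194 of these 268 the parental ratio lay on the other side of 0 from the hybrid ratio, and in 147 the parental difference itself was not called. As the tests define the classes, these sizes describe them and are no separate result.

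Transcripts in neither class are not shown to have equal ratios. The median absolute log2 ratio among these 2184 was 0.27 in the hybrid and 0.36 between the parents, and the 95% interval of the hybrid minus parental difference lay wholly between -1 and 1 in 919 (42.1%). In the rest, a difference of 2-fold or more in either direction was within the interval. A parental difference was called in 891 of them without a call in either of the other tests. Over all 3954 transcripts, the hybrid and parental log2 ratios had a correlation of 0.51 and lay on the same side of 0 in 2526 (63.9%). This correlation is across transcripts at sites that share the reference base and the mapping, and is given as a description.

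The reference base belonged to R9308 at 2734 of the best sites and to Xieqingzao B at 1220, and the shares of cis were close in these groups. Where R9308 had it, 436 were cis (15.9%), 473 trans (17.3%), 269 both (9.84%) and 1556 neither (56.9%). Where Xieqingzao B had it, 206 were cis (16.9%), 252 trans (20.7%), 134 both (11%) and 628 neither (51.5%). The Wilson intervals of the shares overlapped for cis (14.6% to 17.4% and 14.9% to 19.1%), trans (15.9% to 18.8% and 18.5% to 23.0%) and both, but not for neither. The depth differed too, with a median of 96 hybrid reads where R9308 had the reference base and 114 where Xieqingzao B had it.

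The direction of cis, in contrast to its share, followed the reference base. Of the cis transcripts, 302 of 436 (69.3%, Wilson interval 64.8% to 73.4%) favoured the R9308 allele where R9308 had the reference base, and 41 of 206 (19.9%, upper bound 25.9%) where Xieqingzao B had it. Of all biased transcripts (25.8% of the sites tested where R9308 had the reference base, 27.9% where Xieqingzao B had it), 506 of 705 leaned to R9308 in the first group (18.5% of sites tested) and 244 of 340 to Xieqingzao B in the second (20%), so that the parent with the reference base was favoured in 71.8% of both. Summed over both groups, R9308 was favoured in 602 of 1045 biased transcripts (57.6%; 15.2% of those tested, against 11.2% on the Xieqingzao B side) and in 343 of 642 cis transcripts (53.4%, 49.6% to 57.3%). When ratios were instead set against the median of the sites with the same reference parent, these shares were 47.5% of 986 and 42.99% of 635. Those medians were taken over all 11356 sites, with R9308 shares of 54.0% where R9308 had the reference base and 46.4% where Xieqingzao B had it. At the classed sites the medians were 52.9% and 47.4%, so this scaling moved the ratios further than the classed sites' own medians would. Its part in the turn was not tested. An excess of either parent's alleles among cis transcripts therefore has no direction that holds under both scalings.

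This lean towards the reference base did not hold for the widest ratios. It was in 68.7% of 67 biased transcripts with an absolute hybrid log2 ratio under 0.5, in 75% of 424 between 0.5 and 1, in 72.5% of 389 between 1 and 1.5, and in 77.9% of 113 between 1.5 and 2 (Wilson interval 69.4% to 84.5%). At 2 and above it was 16 of 52, or 30.8% (19.9% to 44.3%), and among cis transcripts 14 of 42. Among sites with both bases called, most of the widest ratios thus favoured the allele without the reference base, whichever parent had it. The reference parent was favoured in 12 of 39 where R9308 had the reference base and in 4 of 13 where Xieqingzao B had it. These sites had 4 or more other sites of the table within 100 bases in 40.4%, against 10.1% at ratios between 0.5 and 1, and the part of this in the result was not tested. When the spread between sites was allowed for, 14 of 51 cis transcripts favoured the parent with the reference base (27.5%). That test calls wide ratios most readily, and the 51 overlap with the 42 above. Os01t0304500-00 and Os01t0127200-01, for example, are in both. The 14 of 51 are therefore no separate result. The rule requires both bases in the hybrid, and 9303 sites at which the parents met it had no base called there. Which allele those sites favoured is not known, so the side of the widest ratios depends on which skewed sites were called.

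The reference allele was ahead in the reads as a whole. It made up 53.1% of the hybrid reads at the classed sites where R9308 had the reference base and 52.8% where Xieqingzao B had it, with medians per site of 52.9% and 52.6%. The median log2 hybrid ratio was 0.16 in the first group and -0.15 in the second. The parental ratios were shifted in the same sense, with medians of -0.04 and -0.31, around a median of -0.14 over all transcripts. How much of these shifts comes from mapping was not tested.

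**Figure D2:**
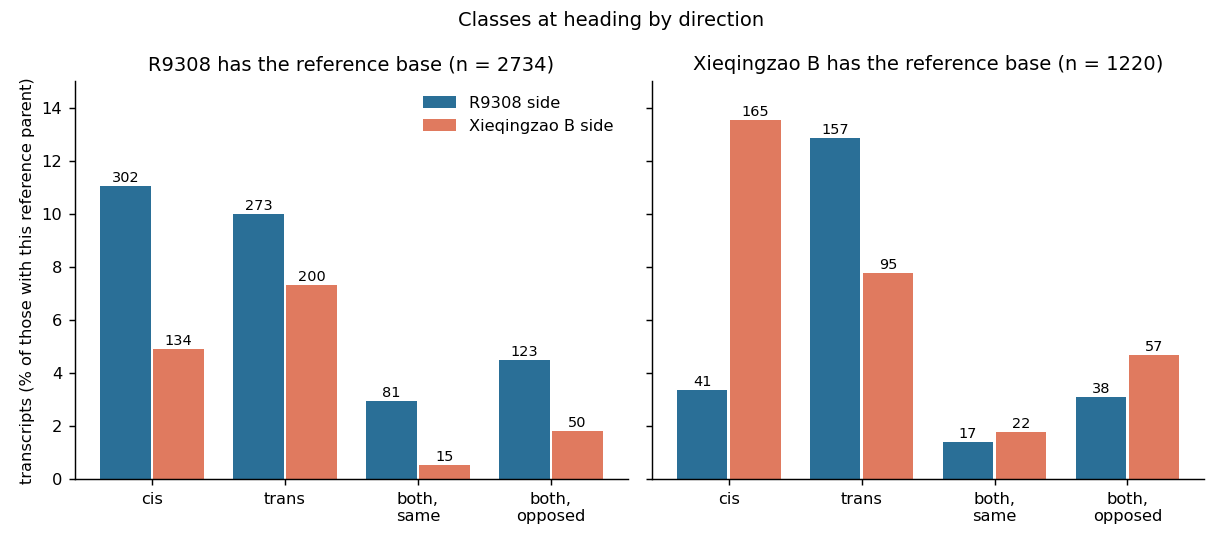
Share of transcripts in each class (vertical axis, percent of those with the same reference parent) by the side of the ratio that defines it: the hybrid ratio for cis and both, the hybrid minus parental difference for trans, with the number of transcripts above each bar. Where R9308 has the reference base 302 cis transcripts lie on the R9308 side and 134 on the other, and where Xieqingzao B has it 41 and 165.

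The direction of trans depended on how the parental columns were scaled. With column sums over all 11356 sites, the hybrid ratio lay on the R9308 side of the parental ratio in 273 of 473 trans transcripts (57.7%) where R9308 had the reference base and in 157 of 252 (62.3%) where Xieqingzao B had it. Over all 1128 called differences, 628 (15.9% of those tested) lay on the R9308 side and 500 (12.6%) on the other, a share of 55.7%. With the median parental log2 ratio set to 0, 459 of 1063 differences (43.2%) lay on the R9308 side, and with column sums over all sites at which both parents had a single base it was 489 of 1067 (45.8%). When each reference parent's sites were taken alone, with column sums over those sites, the share of trans on the R9308 side was 74.1% where R9308 had the reference base and 33.3% where Xieqingzao B had it, so that it turned with the reference base under this scaling. The column sums are carried by deep sites, and the parental ratio moved with depth: its median was -0.29 at sites with 44 to 59 hybrid reads and 0.14 at sites with 200 or more. Likewise, 80 of 110 trans transcripts lay on the R9308 side in the shallowest of these groups and 107 of 242 in the deepest.

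Which class a transcript fell into also went with its depth. Trans made up 14.7% of the 746 transcripts with 44 to 59 hybrid reads, 13.3% of the 1179 with 60 to 99, 18.9% of the 1144 with 100 to 199 and 27.3% of the 885 with 200 or more. Both made up 4.69%, 6.53%, 8.65% and 21.7% of these groups. Cis stayed between 15.6% and 17.0% in all of them, while the median absolute hybrid ratio of cis transcripts was 1.39 in the shallowest and 0.69 in the deepest group. Smaller ratios are thus called at greater depth, and the ratio of cis to trans counts is not comparable between shallow and deep transcripts.

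The classes also went with the size of the parental difference. Of 1829 transcripts with an absolute parental log2 ratio under 0.5, 8.86% were cis and 4.59% trans, and of 762 with a ratio between 1 and 2, 30.3% were cis and 34.0% trans. At 2 and above, which 216 transcripts reached, 25.0% were cis, 39.4% trans and 31.9% both, and 3.70% neither. The parental ratio is part of the second test, so this describes the classes. A regression of the hybrid on the parental log2 ratio over all transcripts had a slope of 0.36.

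Sites crowded by other variable sites stood apart. Where the table held no other site within 100 bases, 14.3% of 2230 transcripts were cis, and where it held 4 or more, 26.6% of 350. The bias of crowded sites followed the reference base less closely, in 59.8% of the biased transcripts against 77% of those with no other site near. Without the transcripts with 4 or more sites near, an alternative chosen after the data were seen, 542 were cis, 678 trans and 328 both of 3604.

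**Figure D3:**
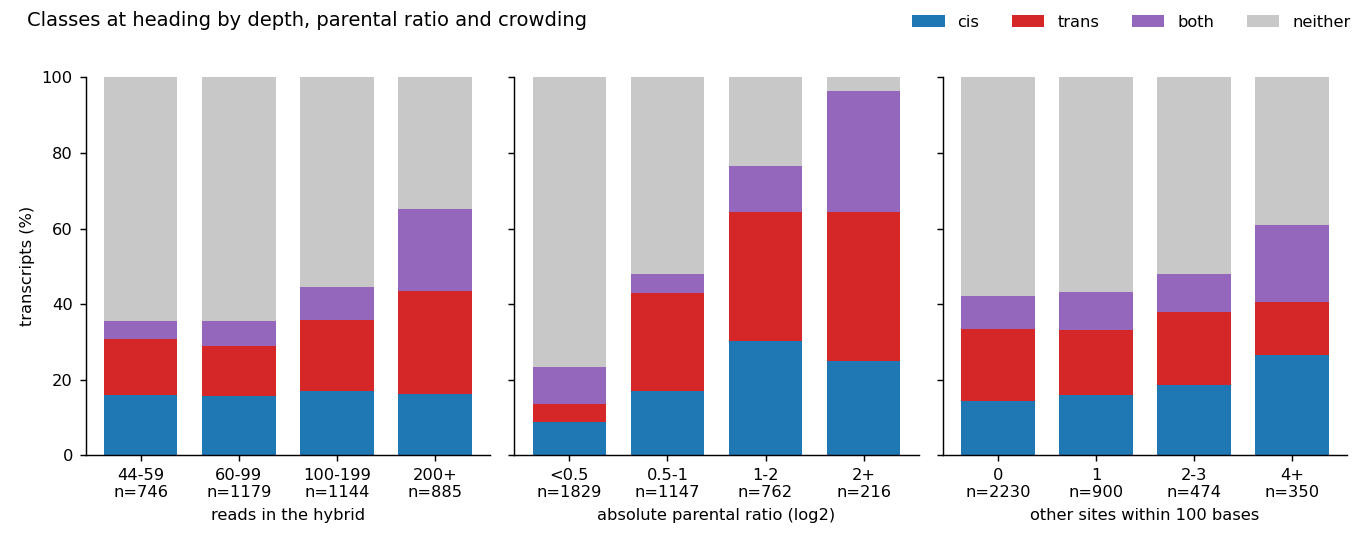
Share of transcripts in each class (vertical axis, percent) by reads in the hybrid, by the absolute parental log2 ratio and by the number of other sites of the table within 100 bases, with the number of transcripts under each bar. Trans and both widen with depth, all of cis, trans and both are more frequent at parental ratios of 1 and above than below 0.5, and cis is most frequent at crowded sites.

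The kind of base difference and the position were not used by the rule. A transition, the exchange of A with G or of C with T, was the base difference at 62.6% of cis sites, 65.7% of trans sites and 67.3% of sites with neither. It was 71.1% with both effects in the same direction (Wilson interval 63.0% to 78.1%) and 57.8% with opposed effects (51.9% to 63.6%), against 65.7% over all classed sites. The median position in the transcript was 851 for cis, 864 for trans, 683 for both in the same direction, 788 for opposed and 925 for neither. By chromosome, the cis share lay between 13.4% on chromosome 10 and 21.3% on chromosome 8, while the share of sites at which R9308 has the reference base ran from 41.4% on chromosome 12 to 94.0% on chromosome 9.

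Inbred parents should show 1 base, and the tillering libraries allow a check of this at the same sites. At 425 of the 3954 best sites (10.7%) a parent had 2 bases called at tillering, in 399 cases the parent without the reference base, and the other base made up a median of 18.1% of its reads. This was so for 115 of 642 cis transcripts (17.9%, 15.1% to 21.1%), 78 of 725 trans (10.8%, 8.71% to 13.2%), 59 of 403 with both (14.6%) and 173 of 2184 with neither (7.92%, 6.86% to 9.13%). Without these 425 transcripts, an alternative chosen after the data were seen, 520 were cis, 650 trans, 341 both and 2018 neither.

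Reads of the same transcript at a second site give a look at the classes from mostly other reads of the same libraries. In 1699 transcripts a second site that met the rule lay at least 200 bases away, where 23.4% were called biased and 23.3% had a called difference. The hybrid minus parental difference had the same sign there in 299 of 328 trans transcripts (91.2%), against 1291 of all 1699 (76%) and 618 of 906 with neither (68.2%), and of the 164 called again by the same test, 163 had the same sign. The hybrid ratio had the same sign in 215 of 273 cis transcripts (78.8%), against 1080 of all 1699 (63.6%) and 508 of 906 with neither (56.1%), and in 83 of the 89 called again. For cis, the sign was kept in 185 of 225 (82.2%) where the same parent had the reference base at both sites and in 30 of 48 (62.5%) where the other parent had it at the second site. For trans it was kept in 243 of 268 and in 56 of 60. As both sites share the parental and hybrid libraries, this says nothing about other roots.

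Other roots, those sampled at tillering, could be set beside heading at 1892 of the 3954 sites, where the rule was also met at tillering. At 1132 of the 3954 sites the parent with the reference base had no call at tillering. At the 1892 sites heading had 277 cis, 301 trans, 142 both and 1172 neither, and tillering had 283 cis (15%), 135 trans (7.14%), 62 both (3.28%) and 1412 neither (74.6%), with 18.2% called biased and 10.4% called different at tillering. The class was the same at both stages in 1140 transcripts (60.3%), mostly in neither. Of the heading cis transcripts 115 of 277 were cis at tillering, and of the heading trans transcripts 39 of 301 were trans.

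Few allele ratios of the hybrid were called different between the stages. The correlation of the log2 hybrid ratio across the 1892 sites was 0.63, a description over sites that share their bases and mapping. Of 277 heading cis transcripts, 251 had the same sign at tillering, and all 129 that were called biased there had it. A difference of the hybrid ratio between heading and tillering passed Fisher's exact test, two-sided and adjusted, in 5 of 1892 transcripts (0.264%), and 179 had an unadjusted p under 0.05. The sites and the reference are the same at both stages, so a bias from mapping would recur as well, and its part was not tested.

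Trans rests on the hybrid minus parental difference, which was set beside tillering in the same way. Its correlation between heading and tillering was -0.04. Of 301 heading trans transcripts, 162 had the same sign at tillering (53.8%), and of the 45 in which a difference was called at tillering 23 had the same sign and 22 the other. The parental ratio correlated at 0.35 between stages, below the hybrid ratio. The difference itself changed between stages in 254 of 1892 transcripts (13.4%) by Zelen's exact test, two-sided, with adjusted p under 0.05 (484 at an unadjusted p under 0.05), among them 125 of the 301 heading trans transcripts. Stage and the pair of roots cannot be told apart here, since each genotype and stage is 1 pool.

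**Figure D4:**
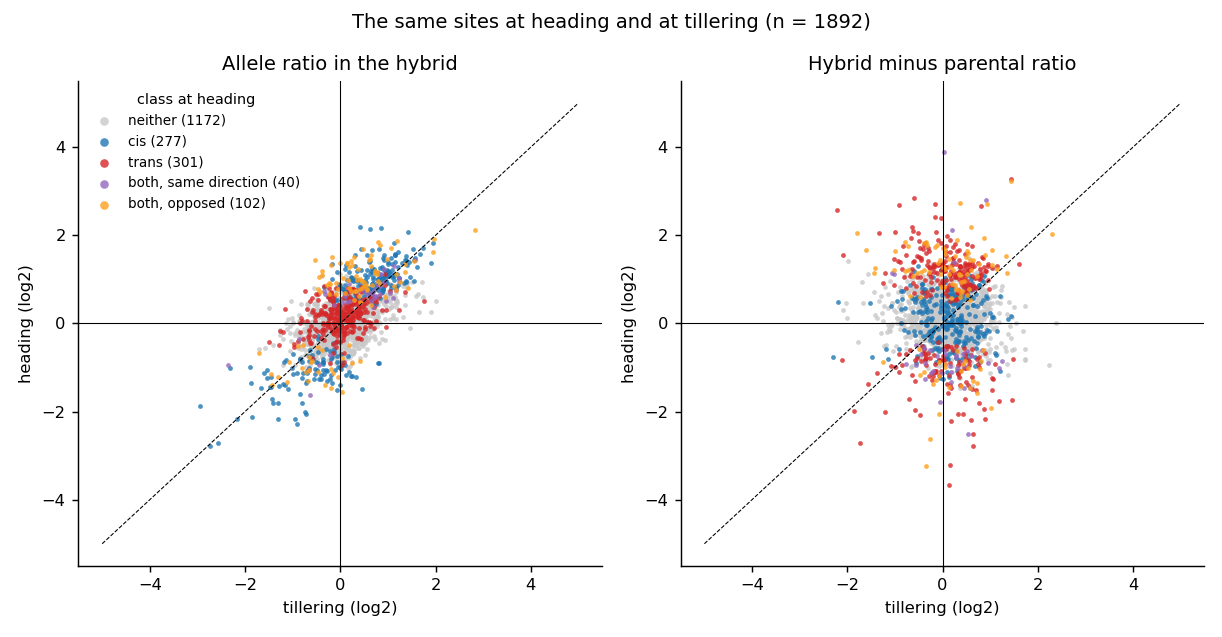
Values at heading (vertical axes) against those at tillering (horizontal axes) at the 1892 sites that met the rule at both stages, for the hybrid allele ratio (left, log2) and for the hybrid minus parental difference (right, log2), with points coloured by the class at heading. The hybrid ratios follow the dashed line of equal values, and the differences do not.

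Neighbouring loci leaned the same way slightly more often than their shares would give. Of 283 pairs of adjacent biased loci, 166 were biased to the same parent (58.7%, against 51.1% from the shares of each side), and of 325 pairs of adjacent loci with a called difference, 189 had the same sign (58.2%, against 50.7%). The longest run of differences was 5 loci on chromosome 4, from Os04t0178300-02 to Os04t0180400-01, with the hybrid ratio below the parental ratio in each. Adjacent loci were taken in identifier order among the classed loci, and no test was made. The shares of each side leave out the reference base. The parent that has it was favoured in 71.8% of biased transcripts, and neighbours can have the same reference parent. R9308 had the reference base at 41.4% of sites on chromosome 12 and at 94.0% on chromosome 9. The part of the reference base in this excess was not tested.

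The rule left out sites at which the hybrid showed 1 base. Among sites that met the parental part of the rule there were 167 with at least 44 hybrid reads of a single base, 69 with the R9308 base and 98 with that of Xieqingzao B. The reference base alone was seen at 42 of them and the other base alone at 125. A further 9303 sites that met the parental part had no base called in the hybrid. How many of those held reads of the reference base alone is not known. The 42 and 125 therefore cannot be set against the lean at sites with both bases. In 47 classed transcripts a site with a single base and at least 44 hybrid reads stood beside the best one, and it pointed to the same allele in 36. The 44-read limit itself lies among many sites, with 66 best sites at exactly 44 reads and 199 sites with both bases at 43.

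The transcripts with the lowest p in each class and direction show what the classes look like in reads. They were chosen for these values, so the values describe them. Positions are counted along the transcript as the table gives them, and a substitution is written with the R9308 base, the position and the Xieqingzao B base.

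Among cis transcripts, Os07t0638400-01 is annotated as similar to a 1-Cys peroxiredoxin, an enzyme that breaks down peroxides. At A67C the hybrid had 353 R9308 and 140 Xieqingzao B reads, against 240 in R9308 and 120 in Xieqingzao B. The log2 ratio was 1.33 ± 0.14 (SE, counting error) in the hybrid and 1.05 ± 0.16 between the parents (exact binomial test of the hybrid, adjusted p = 8.2e-20). Alleles and parents thus leaned alike, and tillering roots were also cis there, with 56 and 21 reads in the hybrid and 443 and 85 in the parents.

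Os11t0199200-01 is the deepest of the named cis transcripts and has its reference base in Xieqingzao B (A377G). The hybrid had 435 R9308 and 745 Xieqingzao B reads and the parents 790 and 1303, a log2 ratio of -0.78 ± 0.09 in the hybrid and -0.67 ± 0.07 between the parents. The difference of -0.11 had a 95% interval of -0.32 to 0.11. The widest cis ratios were smaller in reads: Os01t0304500-00 had 88 and 13 in the hybrid and 161 and 17 in the parents at A204C. That site had 12 others within 100 bases and 2 bases called in Xieqingzao B at tillering, given as 1 read of its own base and 7 of the R9308 base. A pair this small can be read as a date, so these counts are uncertain. The tillering hybrid had only the R9308 base at A204C, in 142 reads, so the site hardly told the alleles apart at that stage. In Os01t0127200-01 the hybrid had 30 and 174 reads and the parents 19 and 239 at G2066A. Its hybrid minus parental difference was 1.08 (0.21 to 1.96, exact conditional test, adjusted p = 0.069), and all 6 of its sites had a positive difference. At its second site the difference was 2.12 (same exact test, adjusted p = 0.001) and its class was both in the same direction, as it was with reads summed over all its sites.

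Among trans transcripts the alleles of the hybrid were nearly even while the parents were far apart. Os04t0592600-01 had 776 R9308 and 771 Xieqingzao B reads in the hybrid at T916C, against 1773 in R9308 and 463 in Xieqingzao B. The log2 ratio was 0.01 ± 0.07 in the hybrid and 1.99 ± 0.08 between the parents, a difference of -1.98 (-2.19 to -1.77, exact conditional test, adjusted p = 6.6e-79). Xieqingzao B has the reference base there and had no call at tillering, when the hybrid had 406 and 395 reads. Its hybrid alleles were therefore even in both pools.

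Os06t0644200-01 was even in the hybrid as well, with 540 and 555 reads at T1232C, against 765 and 1823 in the parents, on the other side. In Os03t0432100-01 the hybrid had 405 and 358 reads at T2828C and the parents 1224 and 281, but at tillering Xieqingzao B had both bases there, 21 reads of the R9308 base and 41 of its own. Os12t0123600-01 had 128 and 102 reads in the hybrid at T537C, against 92 and 743 in the parents, which is the widest difference of the named trans transcripts (3.29, 2.80 to 3.78, exact conditional test, adjusted p = 4.6e-39). At tillering its hybrid reads were 59 and 132, and its class was both in the same direction.

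In the class with both effects in the same direction the alleles of the hybrid differed and the parents differed more. Os10t0330000-01 had 258 and 441 reads in the hybrid at A504G and 291 and 2487 in the parents, log2 ratios of -0.77 ± 0.11 and -3.04 ± 0.09. Os11t0210600-01 lay on the other side, with 501 and 171 reads in the hybrid at T613C and 804 and 51 in the parents. Both had a second site with the same pattern, at which Os10t0330000-01 had 37 and 75 hybrid reads and Os11t0210600-01 had 378 and 140. At tillering, however, R9308 had both bases at the first of these sites and Xieqingzao B at the second.

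Os05t0476700-01 had the lowest parental ratio of all classed transcripts, with 13 reads in R9308 and 414 in Xieqingzao B at G1149A, while the hybrid had 47 and 98. At tillering the parents had 113 and 128 and the hybrid 20 and 32. In Os04t0142400-01 the sites disagreed in the hybrid: it had 408 and 254 reads at A614C and 89 and 409 at position 150, although the hybrid minus parental difference was similar, -2.08 and -1.89. At position 150, and with reads summed over all its sites, the class was opposed. At tillering Xieqingzao B had both bases at A614C, 142 reads of the R9308 base and 339 of its own. A hybrid ratio from 1 site of this transcript does not stand for the whole.

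In the opposed class the hybrid and the parents could lie on opposite sides of 0. Os07t0158900-01, annotated as a cyclin-like F-box domain protein (F-box proteins mark other proteins for breakdown), had 85 R9308 and 22 Xieqingzao B reads in the hybrid at C669A, against 197 and 502 in the parents. Its log2 ratio was 1.93 ± 0.34 in the hybrid and -1.30 ± 0.12 between the parents (difference 3.22, 2.51 to 3.93, exact conditional test, adjusted p = 2.7e-21). At tillering the hybrid had almost the same split, 60 and 15, and the parents 271 and 131, so the parental ratio lay on the other side there and the class was opposed at both stages.

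Os07t0628500-01 crossed the other way at C856G, with 83 and 192 reads in the hybrid and 268 and 68 in the parents. The difference was -2.41 or lower at all 6 of its sites, but the hybrid ratio ranged from -1.21 to 0.41 between them, and at tillering it was cis, with 77 and 191 reads in the hybrid and 122 and 165 in the parents. In Os10t0536400-01 the hybrid had 603 and 1026 reads and the parents 1988 and 1211 at C741A, but at its second site the hybrid had 281 and 266 and the class was trans. In Os12t0576100-00 it had 347 and 269 and the parents 495 and 1427 at C265T, while a nearby site had 290 and 274 in the hybrid. Both of these have the reference base in Xieqingzao B, which had no call there at tillering.

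The best covered transcripts with neither effect show how narrow the intervals can be. Os12t0561000-01 had 476 and 481 reads in the hybrid and 902 and 1095 in the parents at T2625C, a difference of 0.21 (-0.01 to 0.44). For Os01t0167500-01 it was -0.19 (-0.42 to 0.05), for Os03t0278200-01 -0.16 (-0.47 to 0.16) and for Os07t0672500-02 0.28 (-0.01 to 0.57). At these depths a 2-fold difference between hybrid and parents lay outside the interval in all 4. None of the 4 was in neither class when reads were summed over all sites of the transcript: the difference was then 0.22, -0.27, -0.44 and 0.31, and the class was both in the same direction for Os12t0561000-01 and opposed for the other three. A read that covers more than 1 site is counted at each in these sums, as can happen at positions 2607 and 2625 of Os12t0561000-01. The summed calls therefore treat some reads as independent that are not.

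**Figure D5:**
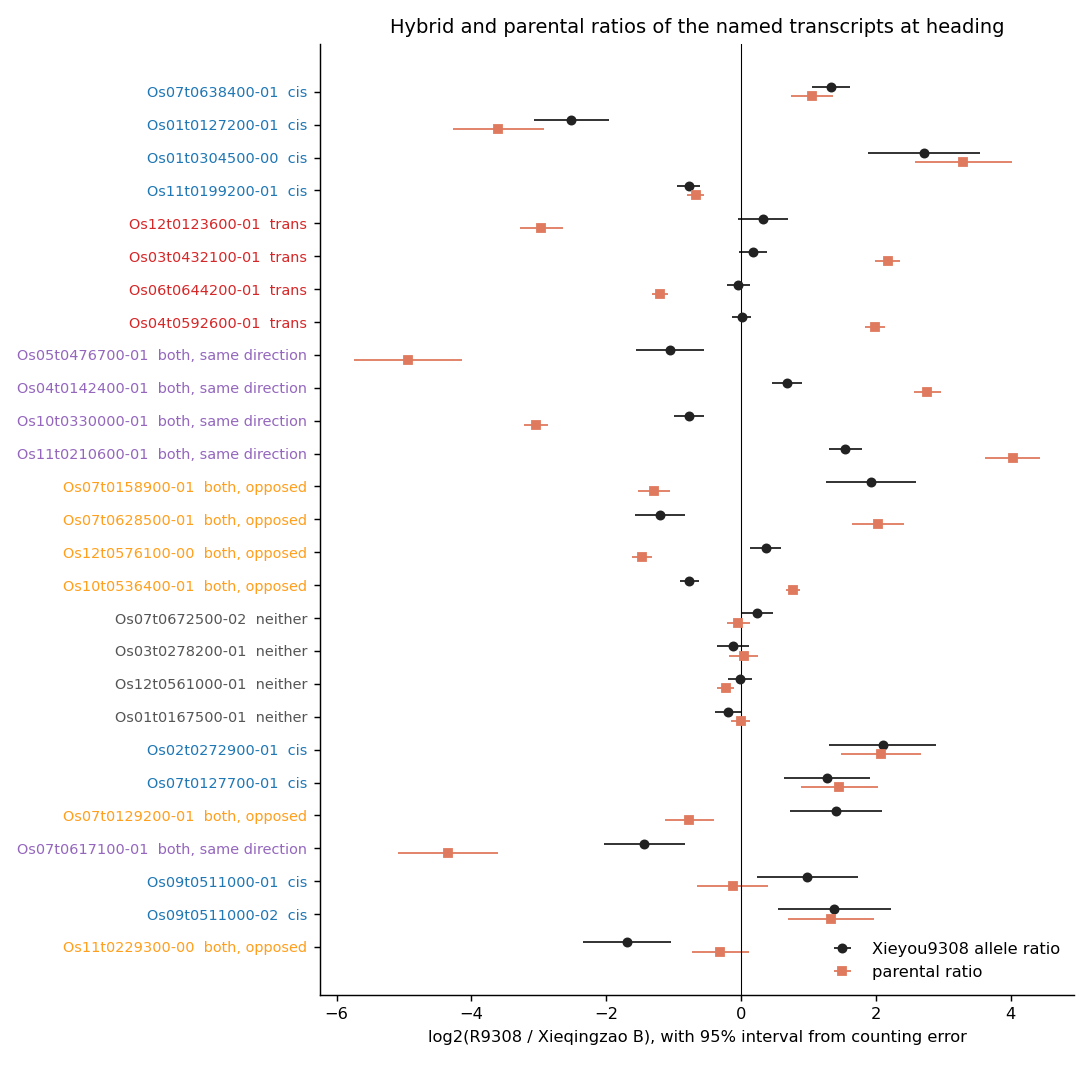
Log2 ratio of R9308 over Xieqingzao B in the hybrid (circles) and between the parents (squares) at heading for the transcripts with the lowest p in each class, the best covered ones with neither effect and the 7 of the resistance group, with 95% intervals from counting error. In cis the intervals of circles and squares overlap, although the ratios of Os01t0127200-01 differ by 1.08 and those of Os09t0511000-01 lie on opposite sides of 0. Circles sit near 0 in trans, and circles and squares stand on opposite sides of 0 in most of the opposed class.

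The study lists 38 loci with strongly skewed alleles in these same roots, and 37 transcripts of 35 of these loci could be classed. The list was chosen on the hybrid reads of these samples, so its cis content is not independent evidence. It held 24 cis, 2 trans, 3 with both in the same direction, 5 opposed and 3 with neither. The hybrid minus parental difference holds the same hybrid reads, so it is not independent of the choice either. Its median absolute value was 0.49 on the list and 0.53 over all 3954, while the median absolute hybrid ratio was 1.44 against 0.39. Of the 32 biased members, 21 leaned to R9308 and 11 to Xieqingzao B, and 22 to the parent with the reference base.

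Resistance genes make up a group within that list, and their members fell into 3 of the classes. Os02t0272900-01, an NB-ARC domain protein of the kind that senses pathogens inside the cell, was cis at G655A, with 66 and 15 reads in the hybrid and 114 and 28 in the parents. The log2 ratio was 2.10 ± 0.41 in the hybrid and 2.08 ± 0.30 between the parents, and all 7 of its sites leaned to R9308 in the hybrid. This best site was the only 1 of the 7 with a positive difference, and the median over them was -0.40. At its second site, where Xieqingzao B has the reference base, the hybrid had 46 and 13 reads. The study set allele ratios against total parental expression, found a lower ratio in the hybrid and proposes both cis- and trans-regulation.

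A pair of pathogenesis-related class 1 proteins, which are secreted during defence, have neighbouring identifiers on chromosome 7 and were classed differently. Os07t0127700-01 was cis at C228T, with 66 and 27 reads in the hybrid and 90 and 34 in the parents, and cis at tillering. Os07t0129200-01, similar to PR1a, had 62 and 23 reads in the hybrid at T510A and 93 and 164 in the parents, so that the parents leaned to Xieqingzao B and the alleles to R9308. The difference was 2.18 (1.40 to 2.95, exact conditional test, adjusted p = 2.0e-07), and the class was opposed. At tillering R9308 had 1402 reads there and Xieqingzao B 504, the hybrid had 74 and 25, and it was cis.

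The chitin elicitor receptor kinase, which in rice takes part in sensing the chitin of fungal walls, has 2 classed transcripts from 1 locus, whose reads can overlap. Os09t0511000-02 was cis at A764G, with 40 and 15 reads in the hybrid and 68 and 28 in the parents. Os09t0511000-01 was cis by a narrow margin at G2466A, with 42 and 21 reads in the hybrid (exact binomial test, adjusted p = 0.043) and 54 and 61 in the parents. Its parental log2 ratio was -0.12, on the other side of 0 from the hybrid ratio. The difference of 1.11 (0.19 to 2.02) narrowly missed the threshold (exact conditional test, adjusted p = 0.061). Against the median of sites with the same reference parent, the adjusted p of its hybrid ratio was 0.13, and it was not called.

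Both remaining resistance transcripts leaned to Xieqingzao B. Os07t0617100-01, of the plant disease resistance response family, had 30 and 82 reads in the hybrid at A269G and 15 and 317 in the parents, and the effects were in the same direction (difference 2.91, 1.96 to 3.87, exact conditional test, adjusted p = 2.8e-08). Os11t0229300-00, similar to an NBS-LRR protein, a class of intracellular immune receptors, had 24 and 79 in the hybrid at C1320G and 78 and 100 in the parents. It was opposed (difference -1.39, -2.17 to -0.61, exact conditional test, adjusted p = 0.0024), but at its second site the difference was -0.88 (same exact test, adjusted p = 0.26), which made it cis there. The study used total parental expression for this transcript, reports that the parents differ and that the hybrid ratio matches theirs, and proposes cis-regulation. Here the parental ratio is the depth at 1 site, and at C1320G a parental difference was not called (exact binomial test, adjusted p = 0.24). Related receptor genes lie in families of similar sequence, and reads shared between copies cannot be told apart here.

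Outside defence, several annotated cis transcripts were cis in both pools. Os03t0829200-01, similar to a soluble epoxide hydrolase, had 34 and 155 reads in the hybrid at heading and 54 and 289 in the parents, and 20 and 50 in the hybrid at tillering, a log2 hybrid ratio of -2.17 at heading and -1.30 at tillering. Os11t0208800-01, similar to a receptor-like kinase, had 21 and 70 in the hybrid, 31 and 122 in the parents, and 27 and 74 in the hybrid at tillering. The regulatory CK2 subunit Os10t0564900-01 leaned the other way, with 74 and 27 reads at heading, 154 and 48 in the parents, and 80 and 27 at tillering.

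A glycoside hydrolase of family 1, Os04t0474300-01, was opposed at both stages. At G1250A the hybrid had 45 R9308 and 10 Xieqingzao B reads at heading while the parents had 83 and 81, and at tillering the hybrid had 53 and 7 and the parents 73 and 35. Its second site, with the reference base in R9308, had 37 and 8 reads in the hybrid and 99 and 70 in the parents. The calmodulin Os07t0681400-01, a calcium sensor, was cis with 32 and 83 reads in the hybrid and 40 and 128 in the parents. The calmodulin-annotated Os11t0669100-01 was trans at its best site, with 481 and 421 reads in the hybrid and 809 and 439 in the parents. Its sites disagreed, however: the 3 others had 108 and 162, 59 and 129, and 12 and 53 reads in the hybrid, and at the second site and with reads summed its class was opposed.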

How the data were processed

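RNA from 12 root samples was sequenced by the authors as paired-end reads on an Illumina instrument. Reads were filtered for quality, mapped with RSEM to the Nipponbare reference genome and pooled over the 2 roots of each genotype and stage. The submitters' processing notes name CASAVA 1.8 and SAMtools 0.1.16, with no role given, and the caller's settings are not given in the sources used here. Per pool, the deposited table holds the base or bases called, read counts for them, and a score for call quality that the authors' caller wrote. Where a cell holds 2 bases the deposited depth is a pair of read counts, reference base first, and it was used as deposited. A dash was taken as no call. The limit of 44 reads keeps out pairs of small numbers in the hybrid that can be read as dates. It does not cover such pairs in the parents at tillering.

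The best covered site per transcript was classed by the exact binomial and exact conditional tests, each adjusted by Benjamini-Hochberg over all 3954 transcripts at 0.05. Stages were compared by Fisher's exact test (hybrid ratio) and Zelen's exact test (hybrid against parental ratio). SE and intervals of log2 ratios are from read counts, and intervals of shares are Wilson 95% intervals. Members and lists were chosen with earlier results of these data known. Named transcripts are those with the lowest p for each class, reference parent and direction, the 2 best covered with neither effect per reference parent, and the members of the study's annotated list; Os02t0272900-01 and the other resistance transcripts are the ones the study singled out. None of the 3861 loci was found in the gene table at hand, so gene lists by function were not analysed here. Transcript sequences were not used here.

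Alternatives changed the read and quality minimums, the threshold, the centring and scaling of the parents, the spread allowed between sites, and the sites used, and the closing section gives their effect. The tests were checked on simulated reads. Tests used scipy 1.17.1 and tables pandas 2.3.3 with numpy 2.4.6, all under Python 3.11.15; figures used matplotlib 3.10.9.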

Additional observations from a re-analysis of the deposited data

Results flagged for a closer look

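Of the 23 named transcripts that met the rule at both stages, 5 differed between heading and tillering by a test of the difference itself. Over all 1892 transcripts compared, the hybrid minus parental difference changed in 254 (13.4%) and the hybrid ratio in 5 (0.264%). Os12t0123600-01, Os05t0476700-01, Os07t0158900-01 and Os07t0628500-01 were named for a low p of the heading difference, and that choice favours a change between stages. The difference between stages is given as heading minus tillering on the log2 scale, and each stage is 1 pool of roots, so stage and pool cannot be told apart.

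In Os12t0123600-01 the hybrid allele ratio was 1.48 higher at heading (Fisher's exact test, two-sided, adjusted p = 0.00084), with 128 R9308 and 102 Xieqingzao B reads at heading and 59 and 132 at tillering. Its hybrid minus parental difference was 1.86 ± 0.42 (SE) higher at heading (Zelen's exact test, two-sided, adjusted p = 0.0005).

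In the other transcripts it was the hybrid minus parental difference that changed. It was 3.85 ± 0.66 higher at heading in Os05t0476700-01 (Zelen's exact test, adjusted p = 1.4e-07), where R9308 had 13 reads at heading and 113 at tillering. It was 1.58 ± 0.52 higher in Os07t0129200-01 (same exact test, adjusted p = 0.026) and 1.79 ± 0.57 higher in Os07t0158900-01 (adjusted p = 0.026), while the hybrid reads were 62 and 23 at heading and 74 and 25 at tillering in Os07t0129200-01, and 85 and 22 at heading and 60 and 15 at tillering in Os07t0158900-01. In Os07t0628500-01 it was -2.89 ± 0.38, lower at heading (same exact test, adjusted p = 6.2e-12), with 68 reads in Xieqingzao B at heading and 165 at tillering.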

How the results depend on the processing

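No paired analysis was possible because the table holds 1 merged column for each genotype and stage, and leaving out a root could not be run for the same reason. Of 22 alternatives, 2 of them chosen after seeing the data, the ones below moved a count by more than 1.5 times, a share beyond its interval, or a direction. Allowing for the spread between sites of a transcript (overdispersion 0.0196 in the hybrid and 0.0213 in the parents) gave 52 biased transcripts and 3 differences, with 51 cis, 2 trans, 1 both and 3900 neither. R9308 was then favoured in 46.2% of the biased and 45.1% of the cis transcripts, and 66.7% of the differences lay on its side. Centring on sites with the same reference parent gave 47.5%, 42.99% and 41.9% for these 3 shares, and the share of differences was 43.2% with the median parental ratio at 0 and 45.8% with sums over all single-base sites. With only sites where R9308 has the reference base the shares were 72.2%, 68.3% and 70.9%. Where Xieqingzao B has it they were 26.2%, 25.8% and 30.6%, with 240 cis, 270 trans, 168 both and 830 neither of 1508, 408 biased and 438 differences; here the column sums were taken over the same sites.

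At 100 hybrid reads or more 342 were cis and 877 neither of 2029, with 655 biased. An adjusted p under 0.01 gave 228 both and 733 differences. Reads summed over all sites gave 764 both, and 60.6% of differences on the R9308 side, but a read that covers more than 1 site is counted at each there. At the second best covered site there were 260 cis, 259 trans, 137 both and 1043 neither of 1699, with 397 biased and 396 differences, and 57.7% of cis towards R9308. Sites with no other within 100 bases gave 390 cis, 234 both, 624 biased (61.2% towards R9308) and 742 differences of 2758. Sites with the same parental bases at tillering gave 235 both and 728 differences of 3045, with 62.8% of the biased, 60.9% of the cis and 60.03% of the differences towards R9308. Fewer transcripts met the last 3 of these conditions. The other counts stayed within 1.5 times. Among the named transcripts, the call was lost in 41 of the 48 that had one when the spread between sites was allowed for, and the ratio of Os04t0418500-01 was 1.28 at its best and -0.43 at its second site; the cause was not tested. Depth limits what the class neither can show, as given with its intervals.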
